A study of Mus musculus with 6 samples.

Results

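The keratin gene family was followed through RNA sequencing of the embryonic mouse soft palate at E14.5, with 3 wild type libraries (controls) and 3 libraries of genotype Dlx5-/- (knockouts). Dlx5 encodes a homeodomain factor that patterns the jaw arches, and the series concerns the interaction of cranial neural crest cells with muscle precursors while this region forms. The strain, the design of the Dlx5 allele, the sex of the embryos and whether libraries came from single or pooled embryos were not given in the labels. Separate embryos are not named for the replicates either, so a p-value here measures only how these libraries spread, part of which may be technical. The members were all rows of the gene table whose symbol is Krt followed by a number and, for some, a letter from a to c. There were 54 of them among 49492 rows.

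Keratins are the intermediate filament proteins of epithelial cells. Each filament is built from pairs of an acidic type I and a basic type II keratin, and the pair in use changes with the kind of epithelium: Krt8 with Krt18 in simple epithelia, Krt5 with Krt14 in the basal layer of stratified epithelia, and Krt1 with Krt10 or Krt4 with Krt13 above it. The embryonic mouth is also covered by periderm, a flat and transient outer layer in which Krt17 and Krt6a are expressed, and which keeps epithelial surfaces apart until the palatal shelves fuse. Nearly all type I genes lie in a cluster on chromosome 11 and the type II genes in a cluster on chromosome 15, where the type I gene Krt18 also lies.

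To show what stands before members of these clusters, the bases upstream of the start site were read from RefSeq windows (GRCm38.p6, the assembly family of mm10). This was done for the 4 tested members that had a window and whose RefSeq and GENCODE start sites lay within 50 bases of each other. They represent the basal layer (Krt5), the suprabasal layer (Krt10), simple epithelium (Krt18) and the hair follicle (Krt75). Each is written 5′ to 3′ on the gene's strand and ends before the more upstream of both start sites, with matches to a searched motif in capitals. The windows are chr15:101712906-101713155 (minus strand) for Krt5, chr11:99389365-99389614 (minus) for Krt10, chr15:102027966-102028179 (plus) for Krt18 and chr15:101573905-101574154 (minus) for Krt75.
Krt5: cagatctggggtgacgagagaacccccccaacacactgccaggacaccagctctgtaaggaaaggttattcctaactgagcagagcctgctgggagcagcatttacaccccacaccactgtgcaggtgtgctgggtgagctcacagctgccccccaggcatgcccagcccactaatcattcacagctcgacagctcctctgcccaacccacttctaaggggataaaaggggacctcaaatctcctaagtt
Krt10: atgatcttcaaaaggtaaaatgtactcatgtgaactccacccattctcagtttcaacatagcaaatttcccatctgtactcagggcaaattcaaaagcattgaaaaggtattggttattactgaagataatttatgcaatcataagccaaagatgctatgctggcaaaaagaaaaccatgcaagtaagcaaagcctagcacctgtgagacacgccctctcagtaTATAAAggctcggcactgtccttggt
Krt18: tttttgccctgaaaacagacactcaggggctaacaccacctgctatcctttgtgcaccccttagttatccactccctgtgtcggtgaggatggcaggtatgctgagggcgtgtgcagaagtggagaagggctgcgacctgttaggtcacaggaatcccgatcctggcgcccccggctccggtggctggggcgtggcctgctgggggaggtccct
Krt75: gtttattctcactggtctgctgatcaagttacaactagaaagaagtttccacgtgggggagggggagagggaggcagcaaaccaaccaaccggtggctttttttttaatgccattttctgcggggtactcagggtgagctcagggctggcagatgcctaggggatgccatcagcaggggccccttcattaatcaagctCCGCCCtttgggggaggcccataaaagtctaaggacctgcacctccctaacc
The motifs searched on both strands were TATAAA (the core of a TATA box), TGANTCA (the core bound by AP-1, with N for any base), TAATTA (a core bound by homeodomains) and GGGCGG (a GC box). Krt10 held TATAAA, which began 26 bases before the start site, and Krt75 held GGGCGG on its opposite strand, 52 bases before the start. No match was found in the Krt5 or the Krt18 sequence. Over the 250 bases before the start, TATAAA was present in 17 of the 37 windows matched to 36 members (45.9%), against 12.4% of all 32851 windows. TAATTA was in 5 of the 37 (13.5%, against 4.84%), TGANTCA in 2 (5.41%, against 6.75%) and GGGCGG in 2 (5.41%, against 32.7%). These are matches of letters, not measured binding sites. For some tested keratins, Krt17 and Krt6a among them, no window was available, so their start sites were not compared. The counts over 37 windows used every window matched to a member, without the comparison of start sites. Windows of any other tested keratins entered only these counts and are not printed.

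Libraries held 6891798 to 11922442 estimated counts, of which 1457 to 2953 per library fell on keratins. Dlx5 had 242, 193 and 113 counts in control libraries and 7, 15 and 17 in knockout libraries, as the labels have it. Both replicates numbered 3 stood apart. In knockout replicate 3 a list of 5 mature brain genes summed to 186 CPM (counts scaled to a common library size), against 3.49 to 12.4 CPM in the others. Control replicate 3 was the richest in keratins, with a sum of 401 CPM against 218 and 239.7 CPM in the other controls and 173 to 223 CPM in knockouts. It was also the richest in 31 other tested genes of the epithelium, with 744 CPM against 532 and 599 CPM in the other controls and 505 to 551 CPM in knockouts. The part of either library's composition in the group differences was not tested, and the leading values are given without each of them. Markers of soft palate tissues were present: the mesenchyme gene Prrx1 measured 168 to 284 CPM, the epithelial gene Epcam 29.95 to 42.2 CPM, and the muscle regulator Myod1 9.63 to 26.3 CPM over all libraries. Markers of enamel-forming epithelium (Amelx, Ambn, Enam, Odam) summed to at most 0.812 CPM in any library, and Enam had no count.

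Of the 54 keratins, 15 had a mean of at least 1 CPM and were tested, 39 lay below that level, and 9 of these had no count in any library. Counts were scaled by TMM (trimmed mean of M-values), and knockout was tested against control with edgeR's quasi-likelihood test over 16218 genes, with Benjamini-Hochberg adjustment. At an adjusted p of 0.05 the test called 0 of the 15 keratins. The background was low as well, since 1 gene of 16218, Dlx5, was called (0.00617%). At an unadjusted p of 0.05, 4 keratins lay lower and 0 higher in the knockout, where 12.8% of all genes lay in either direction and 7.23% were lower. With the same data DESeq2 called 2 keratins (Krt17 and Krt14, both lower), where it called 3.12% of all genes (2.38% lower), and limma-trend called 0, where it called 0.598%. The median log2 fold change of the tested keratins was -0.37, with 13 estimates below 0 and 2 above, beside a median of 0.01 over all genes tested. In bulk tissue, fewer cells of a type and less RNA per cell cannot be told apart.

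The 2 tested keratins of the periderm and activated epithelium were the lowest of the family in the knockout relative to control. Krt17, a type I keratin of periderm and of wounded epidermis (chromosome 11 from 100256217 to 100261029, minus strand), measured 40.9, 39.0 and 80.5 CPM in the controls and 19.7, 19.2 and 8.15 CPM in the knockouts. Every knockout library lay below every control library. Its mean was 53.5 ± 23.4 CPM in controls and 15.7 ± 6.53 CPM in knockouts (SD, n = 3 each), a log2 fold change of -1.78 (SE 0.38; 95% interval -2.65 to -0.91). That is a 3.44-fold lower level, larger than the spread within groups but not past the threshold in edgeR (adjusted p = 0.0913). It was the single keratin under an adjusted p of 0.1, a level that 1.84% of all genes reached. DESeq2 put it past the threshold (adjusted p = 0.0195). Without knockout replicate 3 the log2 fold change was -1.44 (edgeR adjusted p = 0.0627), and without control replicate 3, the highest library, it was -1.37 (0.237).

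Krt6a, a type II keratin that pairs with Krt17 and is known from periderm, hair follicles and wounds (chromosome 15 from 101689910 to 101694307, minus strand), measured 9.82, 7.55 and 31.3 CPM in the controls. In the knockouts it measured 2.01, 4.46 and 0.754 CPM, which in knockout replicate 3 was 10 estimated counts. The groups did not overlap, and control replicate 3 stood above all other libraries. The means were 16.2 ± 13.1 CPM and 2.41 ± 1.88 CPM (SD, n = 3 each). Its log2 fold change of -2.77 (SE 0.71; 95% interval -4.40 to -1.15) was the lowest of the family, a 6.83-fold difference, with an edgeR adjusted p of 0.142. It was -2.27 without knockout replicate 3 and -1.88 without control replicate 3, with edgeR adjusted p of 0.159 and 0.395, and -3.61 without knockout replicate 2 (0.115).

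Reads of Krt6a cannot be fully told from those of its neighbour Krt6b. Of all stretches of 50 bases in GENCODE transcripts of Krt6a, 40.3% also occur in Krt6b, and 44.8% in any other keratin. In the deposited estimates Krt6b rounded to 0 counts in each library, and how shared reads were assigned is not given. The split between Krt6a and Krt6b is therefore uncertain. Exons of Krt6a also overlap the predicted gene Gm49428 on the opposite strand over 471 bases, and whether strand was used in counting is not given. For Krt17 the share of stretches found in another keratin was 3.995%, most of it in Krt14, and for Krt14 it was 13.9%, most of it in Krt16. Krt16, the third activated keratin, was below the filter and is named after its values were seen. Its counts were 1, 0 and 8 over control libraries and 0 in each knockout library, where a count of 0 allows up to 3.

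Among basal keratins, Krt14 differed from its partner Krt5. Krt14, the main type I keratin of basal cells (chromosome 11 from 100203162 to 100207548, minus strand), measured 26.3, 31.0 and 64.7 CPM in the controls and 19.5, 19.5 and 22.6 CPM in the knockouts. All knockout libraries lay below all control libraries, with the 3 knockouts close together. Its mean was 40.7 ± 20.9 CPM in controls and 20.5 ± 1.81 CPM in knockouts (SD, n = 3 each), a log2 fold change of -0.97 (SE 0.31; edgeR adjusted p = 0.228, DESeq2 adjusted p = 0.0196). Without control replicate 3 the log2 fold change was -0.48 (edgeR adjusted p = 0.326). Without knockout replicate 3 it was -1.04 (0.215).

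Krt5, the type II partner of Krt14 (chromosome 15 from 101707070 to 101712898, minus strand), measured 19.0, 33.0 and 49.2 CPM in the controls and 25.7, 27.9 and 44.9 CPM in the knockouts. The groups overlapped throughout, with means of 33.7 ± 15.1 CPM and 32.8 ± 10.5 CPM (SD, n = 3 each). Krt5 had a log2 fold change of -0.02, with a 95% interval of -0.78 to 0.74 that leaves changes of either sign possible. Its sign depended on single libraries, from -0.32 without knockout replicate 3 to 0.33 without control replicate 3.

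Krt15, another type I keratin of basal cells, measured 29.6, 45.9 and 58.9 CPM in the controls and 30.3, 53.0 and 72.4 CPM in the knockouts. Knockout replicate 3 was the highest and control replicate 1 the lowest, and the groups overlapped. The log2 fold change was 0.23 (SE 0.32; edgeR adjusted p = 0.831), and without knockout replicate 3 it was -0.10. Krt14 and Krt15 are both type I and both basal, yet the ratio of Krt14 to Krt15 counts was 0.891, 0.675 and 1.10 for controls and 0.645, 0.367 and 0.313 for knockouts. This ratio was picked after its values were seen, and the difference was not tested.

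**Figure D1:**
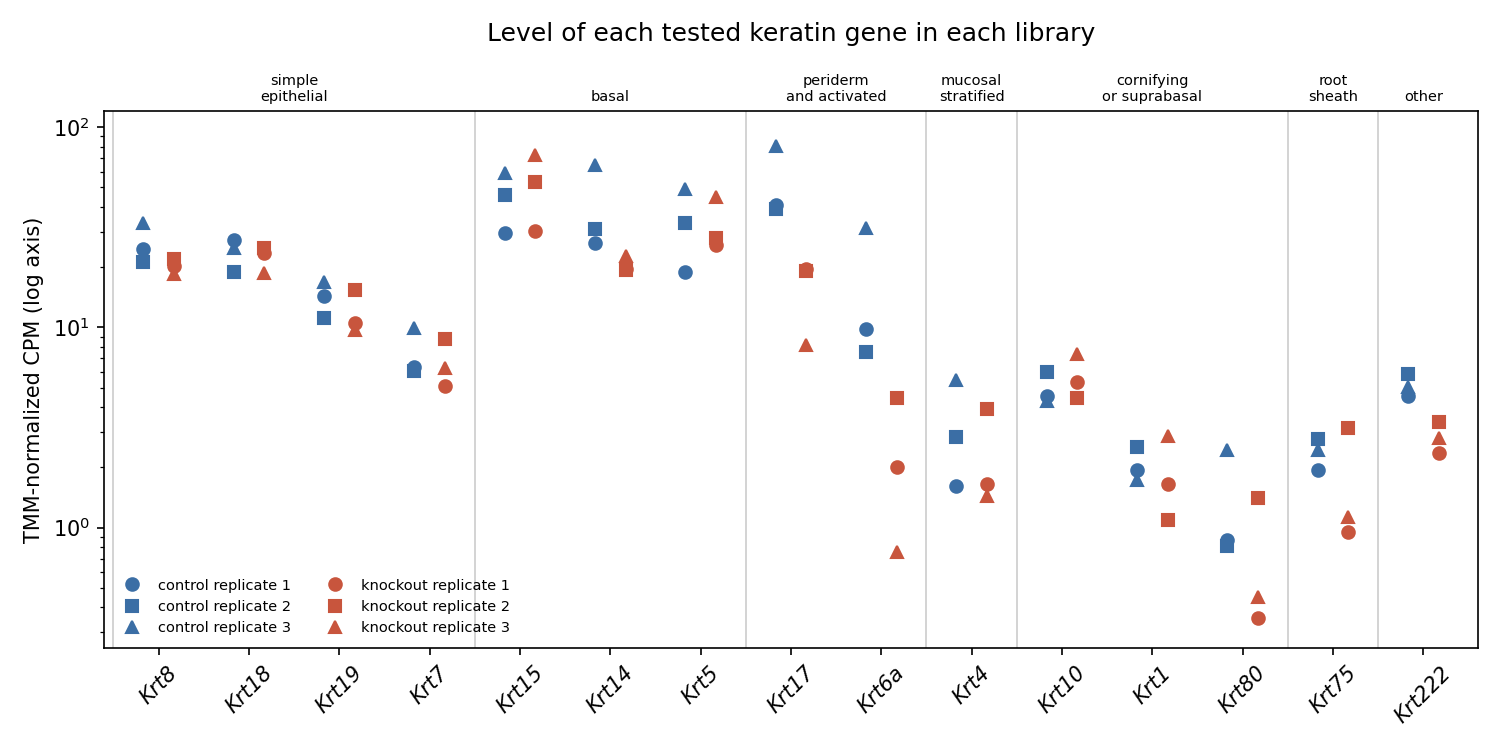
TMM-normalized CPM on a log axis for the 15 tested keratins, 1 symbol per library, grouped by class (blue, control; red, knockout; symbol shape, replicate number). Krt17, Krt6a, Krt14 and Krt222 have all 3 knockout libraries below all 3 controls, while the symbols of the other keratins mix.

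Simple epithelial keratins overlapped between the groups. Krt8 (type II; chromosome 15 from 101996698 to 102004482, minus strand) measured 24.6, 21.2 and 33.2 CPM in the controls and 20.3, 21.95 and 18.5 CPM in the knockouts, with a log2 fold change of -0.37 (SE 0.17; edgeR adjusted p = 0.414). The groups overlapped by 1 library, since knockout replicate 2 lay above control replicate 2. Without knockout replicate 3 the Krt8 value was -0.31, and without control replicate 3 it was -0.18. Its partner Krt18 (type I; chromosome 15 from 102028180 to 102032027, plus strand) measured 27.2, 19.0 and 25.01 CPM in the controls and 23.5, 24.9 and 18.8 CPM in the knockouts. The Krt18 log2 fold change was -0.08, with a narrow 95% interval of -0.47 to 0.30. Its lower bound lay above the upper bound of -0.91 for Krt17.

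Krt19, a type I keratin of simple and ductal epithelia that is also present in periderm, measured 14.4, 11.1 and 16.8 CPM in the controls and 10.5, 15.4 and 9.66 CPM in the knockouts. Krt7, a type II keratin of glandular and ductal epithelia, measured 6.37, 6.09 and 9.92 CPM in the controls and 5.09, 8.80 and 6.26 CPM in the knockouts. Both sets of libraries overlapped, with log2 fold changes of -0.24 for Krt19 and -0.14 for Krt7 (edgeR adjusted p = 0.723 and 0.893). Both were nearer 0 without knockout replicate 3, at -0.11 and -0.080. Krt20, a keratin of intestinal and urinary epithelium, was below the filter, with 12 control counts and 7 knockout counts.

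Suprabasal keratins were scarce. Krt10 measured 4.53, 6.01 and 4.31 CPM in the controls and 5.33, 4.46 and 7.39 CPM in the knockouts, and its partner Krt1 measured 1.94, 2.52 and 1.73 CPM and then 1.66, 1.09 and 2.87 CPM. For both, knockout replicate 3 was the highest of the 6 libraries and the groups overlapped. The log2 fold changes were 0.21 for Krt10 and -0.13 for Krt1, and without knockout replicate 3 they were -0.04 and -0.61. The mucosal keratin Krt4, typical of the later oral and oesophageal lining, measured 1.62, 2.84 and 5.46 CPM in the controls and 1.66, 3.91 and 1.43 CPM in the knockouts. Its log2 fold change was -0.49 (edgeR adjusted p = 0.770), -0.21 without knockout replicate 3 and 0.037 without control replicate 3. Its partner Krt13 was below the filter, with 4, 17 and 13 counts in control libraries and 3, 17 and 0 in knockout libraries. Krt80, a type II keratin of differentiating epithelia, ranged from 0.355 to 2.44 CPM with overlapping groups and a log2 fold change of -0.85 (-0.54 without knockout replicate 3 and -0.20 without control replicate 3).

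Of the hair follicle and nail keratins, Krt75, a type II keratin of the companion layer of the follicle, was the 1 tested. It measured 1.94, 2.76 and 2.44 CPM in the controls and 0.947, 3.15 and 1.13 CPM in the knockouts, with knockout replicate 2 above every control and a log2 fold change of -0.46 (-0.21 without knockout replicate 3). Of 15 hair shaft keratins in the table, 15 were below the filter and 6 had no count. The most counted of them was Krt87, with 24 control and 25 knockout counts. Among other members under the filter, Krt79 had 19 control and 8 knockout counts, Krt24 had 4 and 22, and Krt23 had 5 and 10. Krt9, a keratin of footpad skin, had 14 counts in knockout replicate 3 and 0 in every other library. Krt77 had 8 of its 10 counts in knockout replicate 3. Krt25, Krt26 and Krt28, keratins of the inner root sheath, had 10 to 11 counts each over all libraries.

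Krt222, which lies in the type I cluster (chromosome 11 from 99232761 to 99244085, minus strand), measured 4.53, 5.84 and 5.03 CPM in the controls and 2.37, 3.37 and 2.79 CPM in the knockouts. The groups did not overlap and the libraries of each group lay close together. The log2 fold change was -0.85 (SE 0.26; edgeR adjusted p = 0.212), and it stayed between -0.997 and -0.74 with any 1 library left out. All 5 neuron markers (Tubb3, Elavl3, Stmn2, Nefm and Map2) also had estimates below 0, with a sum of 1995 to 2607 CPM in controls and 1051 to 1393 CPM in knockouts. The part of neurons in the Krt222 values was not tested.

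In all, 4 of the 15 tested keratins had groups that did not overlap, each lower in the knockout (Krt17, Krt6a, Krt14 and Krt222), and 0 were higher. Over all genes tested, 9.71% were separated with the knockout lower and 9.48% with the knockout higher. Without control replicate 3 the same 4 were separated (13.7% of all genes were, lower). Groups separated over all libraries stay so when a library is dropped, apart from rescaling, so this is no check on that library. Without knockout replicate 3 Krt1 joined them (16.0%).

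Summed over its members, the periderm and activated class measured 50.9, 46.6 and 113 CPM in the controls and 21.7, 23.7 and 8.90 CPM in the knockouts, so all knockouts lay below all controls. The sum was 70.1 ± 37.2 CPM in controls and 18.1 ± 8.02 CPM in knockouts (SD, n = 3 each), a 3.88-fold difference. On a log2 scale it was -1.96, and it lay between -2.21 and -1.43 when single libraries were dropped (-1.63 without knockout replicate 3 and -1.43 without control replicate 3). Basal keratins summed to 74.9, 110.0 and 173 CPM in the controls and 75.6, 100.4 and 140 CPM in the knockouts, and simple keratins to 73.0, 57.5 and 86.0 CPM and to 59.9, 71.1 and 53.3 CPM. Both of these sums overlapped between groups, at -0.18 and -0.23 on the log2 scale. The sign of the basal value was not stable: it was 0.18 without control replicate 3, 0.011 without knockout replicate 1, 0.060 when scaled to other epithelial genes and -0.44 without knockout replicate 3.

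**Figure D2:**
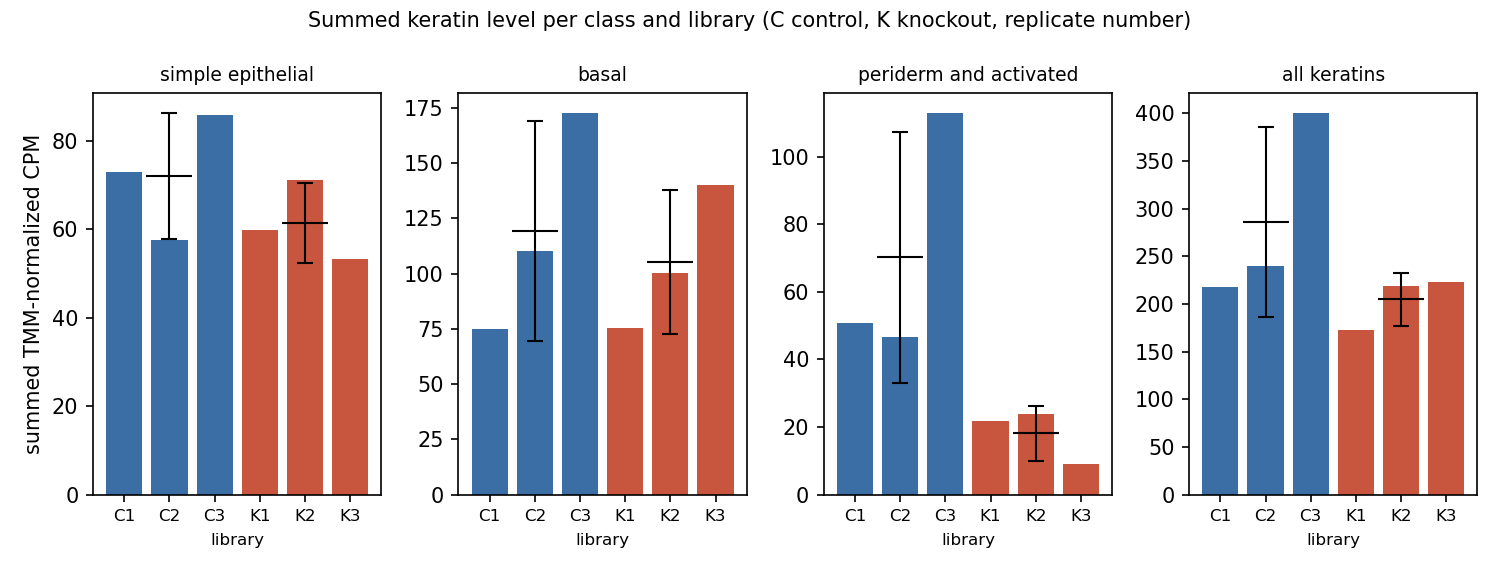
Summed TMM-normalized CPM of the simple, basal, and periderm and activated keratins and of all 54 keratins, 1 bar per library from 0 (blue, control; red, knockout), with the group mean and SD in black. The periderm and activated sums are 46.6 to 113 CPM in controls and 8.90 to 23.7 CPM in knockouts, and the other sums overlap.

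As a share of all keratin counts within a library, the periderm and activated class took 23.3%, 19.4% and 28.2% in the controls. The shares in the knockouts were 12.6%, 10.8% and 3.997%. The 95% Wilson intervals, which cover counting error only, ran from 18.1% at the lowest in controls to 14.4% at the highest in knockouts, so no control interval met a knockout interval. Basal keratins took 34.4% to 45.9% in controls and 43.8% to 62.8% in knockouts, with the highest share in knockout replicate 3.

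Per kilobase of exon, the scale on which different genes can be compared, Krt17 had the highest control level of the family, at 34.5 ± 15.1 CPM per kilobase (SD, n = 3). It was followed by Krt15 at 25.4 ± 8.32, Krt14 at 23.1 ± 11.9, Krt18 at 16.5 ± 2.96, Krt5 at 15.4 ± 6.87 and Krt8 at 13.5 ± 3.16. Each neighbour in this order differed from the next by less than the larger of their SDs. In the knockouts the order was Krt15 (29.4 ± 11.9), Krt18 (15.6 ± 2.22), Krt5 (14.9 ± 4.78), Krt14 (11.7 ± 1.03), Krt8 (10.3 ± 0.886) and then Krt17 (10.1 ± 4.21). Krt14, Krt8 and Krt17 lay close together there, and the place of Krt17 rested on knockout replicate 3. Without it Krt17 measured 12.5 CPM per kilobase, after Krt15 (23.6) and Krt18 (16.8) and just above Krt5 (12.2) and Krt14 (11.1). Without control replicate 3 Krt17 remained first among the controls, at 25.8 CPM per kilobase. Krt6a measured 6.72 ± 5.43 CPM per kilobase in controls and 0.996 ± 0.778 in knockouts. Lengths are unions of all annotated exons, which lowers the value of genes with long rare transcripts.

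Ratios of partner genes were compared within libraries for the type II and type I pairs. The ratio of Krt5 to Krt14 counts was 0.721, 1.07 and 0.760 in control libraries and 1.32, 1.44 and 1.98 in knockout libraries, so every knockout library was above every control library. The difference on the log2 scale was 0.89 (exact permutation test, two-sided p = 0.1, n = 3 each; adjusted over 4 pairs 0.2), and 0.1 is the smallest p that 3 against 3 libraries can give. Krt8 to Krt18 was 0.905, 1.12 and 1.33 for controls and 0.864, 0.882 and 0.984 for knockouts, which overlapped (exact permutation p = 0.2, adjusted 0.2). These ratios are of counts not corrected for gene length, so a ratio of 1 does not mean equal levels. Krt6a to Krt17 was 0.240, 0.193 and 0.389 for controls and 0.102, 0.232 and 0.0926 for knockouts, which overlapped (exact permutation p = 0.2, adjusted 0.2). Krt1 to Krt10 was 0.400 to 0.429 in the controls and 0.244 to 0.388 in the knockouts (exact permutation p = 0.1, adjusted 0.2), but Krt1 rests on 10 to 38 counts. For Krt4 and Krt13 no ratio was formed, since Krt13 had 0 counts in knockout replicate 3.

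Against Krt5 and Krt8, which belong to other classes, Krt17 was lower in each knockout library than in any control library. These ratios were picked after the values were seen, and they do not stand for keratins of other classes in general. Krt17 to Krt5 was 2.15, 1.18 and 1.64 for controls and 0.765, 0.689 and 0.182 for knockouts. Krt17 to Krt8 was 1.66, 1.84 and 2.42 for controls and 0.971, 0.876 and 0.441 for knockouts. Neither pair of groups overlapped, and neither ratio was tested.

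**Figure D3:**
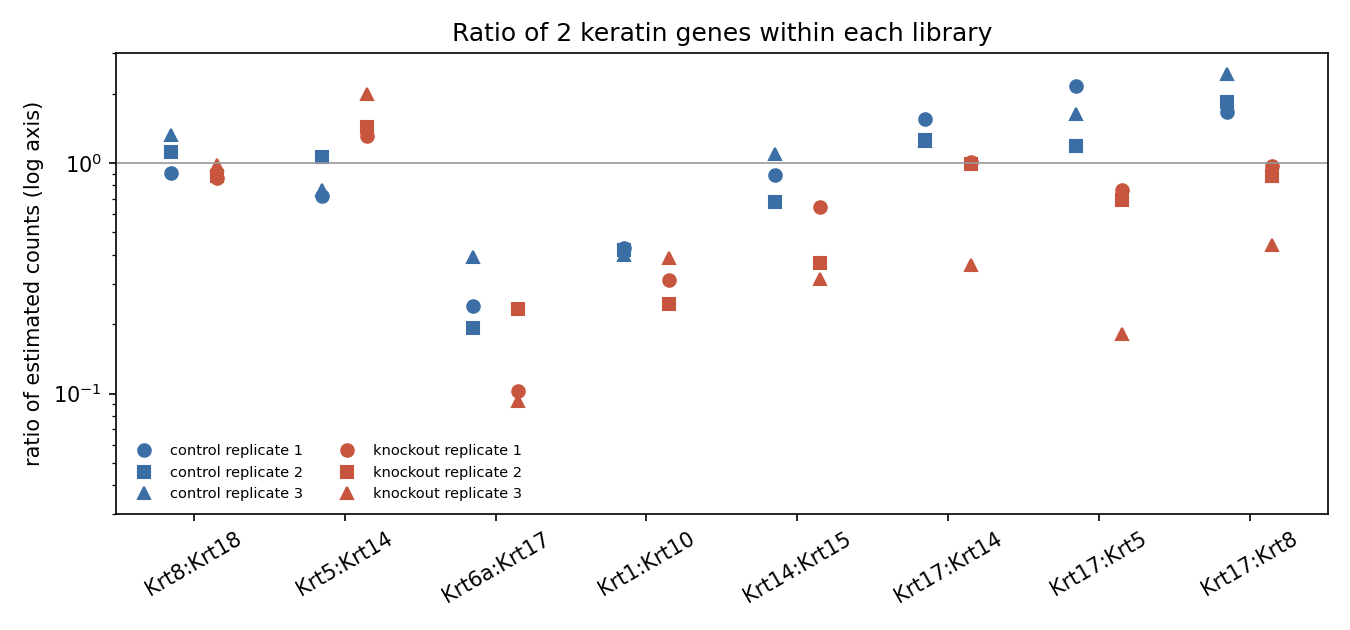
Ratio of the estimated counts of 2 keratins within each library, on a log axis, with a line at equal counts (blue, control; red, knockout; symbol shape, replicate number). Krt5 to Krt14 lies higher in all knockouts (1.32 to 1.98) than in all controls (0.721 to 1.07). Krt8 to Krt18 overlaps between the groups, and Krt17 to Krt5 and to Krt8 lie lower in all knockouts.

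Other genes of the epithelium were read from the same fit, from lists of regulators, adhesion proteins, desmosome and plakin proteins, hemidesmosome and basement membrane proteins, and products of stratified epithelium. Of 37 genes found, 31 were tested, and edgeR called 0 of them (0.00617% of all genes were called). At an unadjusted p of 0.05 there were 9 lower and 1 higher, where 12.8% of all genes lay in either direction and 7.23% were lower. DESeq2 called 3 (Ehf, Cdh1 and Pkp1, all lower), where it called 2.38% of all genes lower, and limma-trend called 0. Their median log2 fold change was -0.22, with 23 estimates lower and 8 higher. Trp63, the master regulator of stratified epithelium, measured 10.04, 11.8 and 17.0 CPM in the controls and 10.3, 12.4 and 26.2 CPM in the knockouts. For Epcam, a pan-epithelial adhesion molecule, the control mean was 36.5 ± 3.77 CPM and the knockout mean 34.8 ± 6.46 CPM (SD, n = 3 each). Both overlapped between groups, with 95% intervals of the log2 fold change of -0.46 to 1.18 for Trp63 and -0.40 to 0.26 for Epcam. The estimate for Trp63 was -0.18 without knockout replicate 3, and that for Epcam 0.032.

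Cdh1, the cadherin of epithelial junctions, measured 57.1, 52.0 and 67.7 CPM in the controls and 39.4, 47.6 and 37.0 CPM in the knockouts (log2 fold change -0.51; edgeR adjusted p = 0.142). Ehf, an ETS factor of differentiating epithelium, measured 15.9, 12.8 and 21.6 CPM in the controls and 7.58, 8.69 and 3.09 CPM in the knockouts (-1.39; adjusted p = 0.152). Like Krt17 and Krt6a, Ehf was lowest in knockout replicate 3 and highest in control replicate 3. Pkp1, a desmosome protein of stratified epithelium that links keratins to the junction, measured 6.48, 7.06 and 12.8 CPM and then 3.08, 3.69 and 4.53 CPM (-1.19; adjusted p = 0.151). For the plakoglobin gene Jup the means were 70.2 ± 8.04 CPM and 55.5 ± 2.23 CPM (-0.34; adjusted p = 0.194). In these 4 genes the groups did not overlap. They did not without either replicate 3, but separated groups stay separated when a library is dropped, apart from rescaling. That outcome is therefore no check on either library. Over the list, 8 of 31 genes were separated with the knockout lower and 1 with it higher, where 9.71% and 9.48% of all genes were. Without knockout replicate 3 the log2 fold changes were -0.43 for Cdh1, -1.03 for Ehf, -1.35 for Pkp1 and -0.31 for Jup, and without control replicate 3 they were -0.41, -1.17, -0.84 and -0.33. All 7 desmosome and plakin genes and all 6 hemidesmosome genes had estimates below 0, with medians of -0.34 and -0.32, while the 10 tested regulators were split into 5 lower and 5 higher (median 0.06).

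Higher estimates were fewer. Cldn6, a claudin of embryonic epithelia, measured 10.04, 7.47 and 10.1 CPM in the controls and 13.5, 10.9 and 15.6 CPM in the knockouts, with no overlap (log2 fold change 0.55; edgeR adjusted p = 0.309). Lor, a protein of the cornified envelope, was near the filter, at 0.575 to 1.51 CPM in controls and 1.09 to 2.26 CPM in knockouts. Grhl2, a regulator of epithelial junction genes, measured 8.03 ± 1.51 CPM and 9.99 ± 0.854 CPM (SD, n = 3 each), with overlapping groups (edgeR adjusted p = 0.559).

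**Figure D4:**
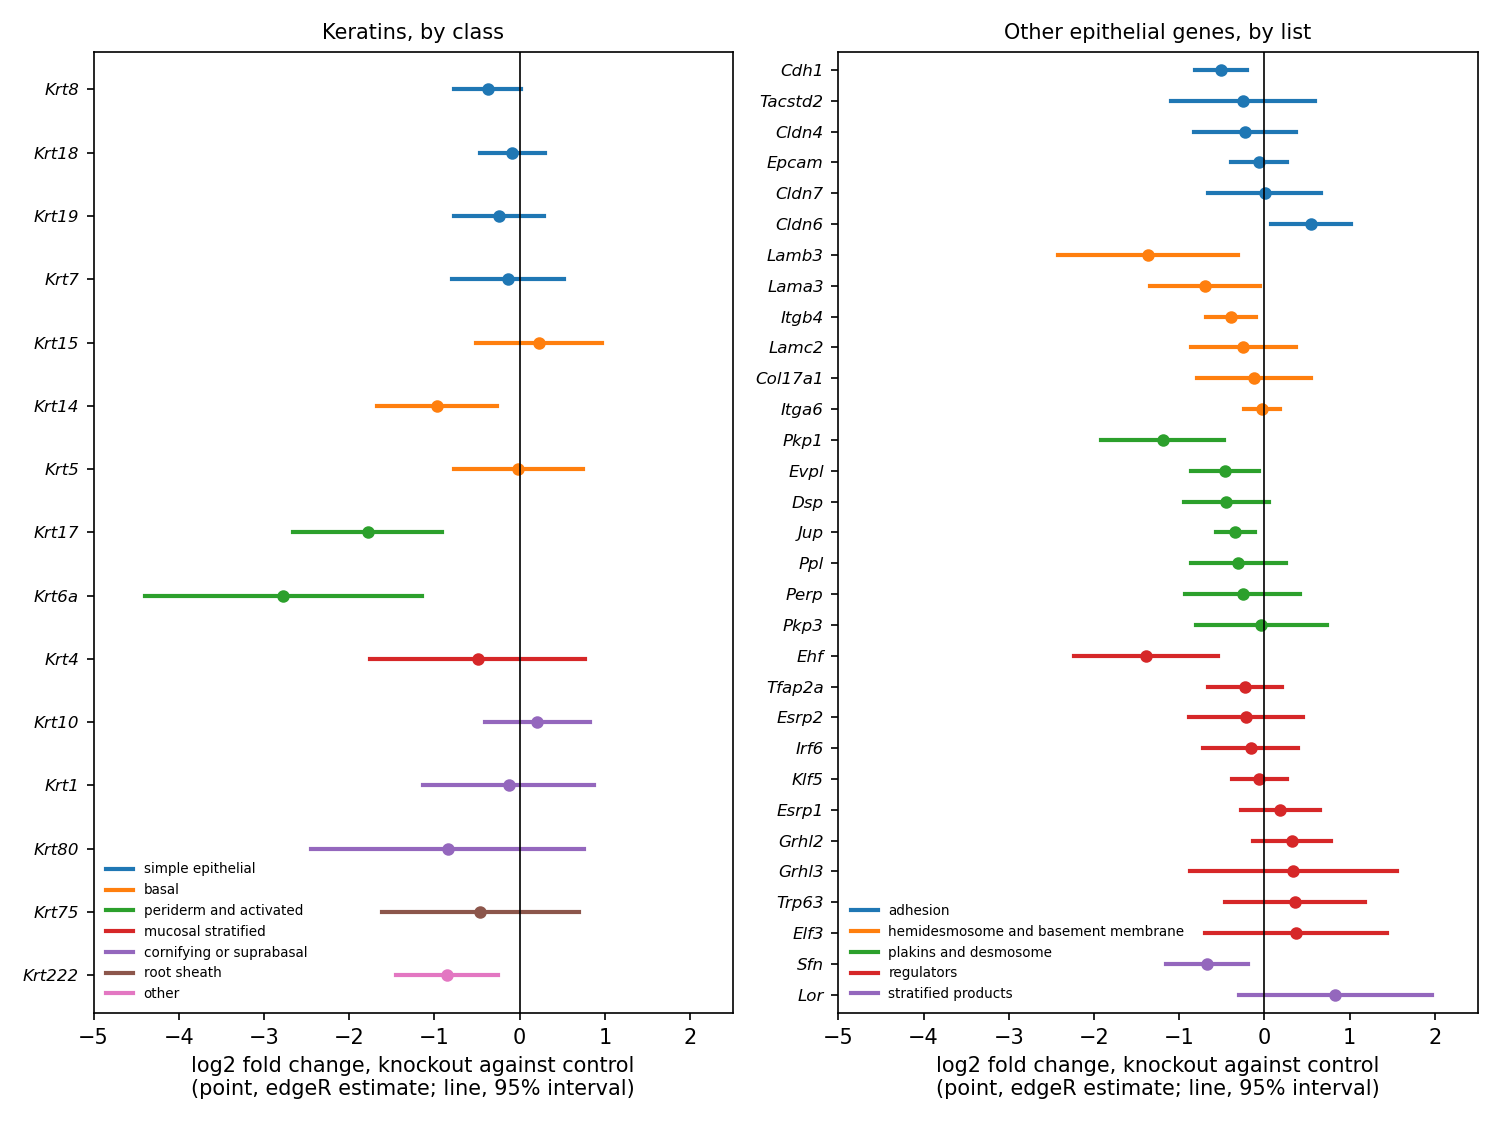
edgeR log2 fold changes of knockout against control with 95% intervals for the 15 tested keratins (left, coloured by class) and 31 other epithelial genes (right, coloured by list), with a line at 0. Krt6a (-2.77) and Krt17 (-1.78) lie furthest below 0 among keratins, and Ehf (-1.39) does among the others.

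When libraries were scaled to the mean of these 31 genes in place of TMM, which states keratin changes relative to other epithelial genes, the log2 fold change of Krt17 was -1.51 and passed the threshold (edgeR adjusted p = 0.0428), where 0.179% of all genes were called. This scaling moved the median of all genes up by 0.20. Krt6a was then at -2.46 (adjusted p = 0.0589) and Krt14 at -0.72 (0.194). Krt5 was at 0.21, Krt18 at 0.12 and Krt8 at -0.15.

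Markers of other tissues were read in the same libraries, and edgeR called 0 of them. All 4 pituitary markers summed (Six3, Pou1f1, Cga and Pomc) had estimates below 0, with sums of 93.3 to 165 CPM in controls and 6.94 to 61.0 CPM in knockouts. These sums did not overlap, and they were lowest in knockout replicate 3, as Krt17 and Krt6a were. All 5 skeletal muscle markers had estimates above 0, with sums of 180 to 267 CPM in controls and 267 to 627 CPM in knockouts. Respiratory markers summed to 5.28 to 9.92 CPM in controls and 2.49 to 9.83 CPM in knockouts, of which Foxj1 made up most. Among them Nkx2-1 had 4, 9 and 19 counts in control libraries and 0 in each knockout library. The part of any of these tissues in the keratin values was not tested.

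Alternatives to the main fit (edgeR with TMM, a filter at a mean of 1 CPM, no block, all libraries) left the direction of the leading keratins in place. The groups of Krt17, Krt6a and Krt14 did not overlap, so leaving out a library could not turn their signs, apart from rescaling. Their direction in those fits is therefore no check on any library. Over 15 alternatives, Krt17 ranged from -1.98 to -1.37, Krt6a from -3.61 to -1.88 and Krt14 from -1.20 to -0.48. Krt17 passed the threshold in 3 of them, Krt14 in 2 and Krt6a in 1. Without any filter edgeR called all 3 (adjusted p = 3.79e-05 for Krt17, 0.00554 for Krt14 and 0.000311 for Krt6a), where it called 2.27% of 29870 genes (1.46% lower). The background was 0.591% with a filter of 5 CPM, 0.253% with library totals, 0.592% in limma-trend with the smaller pseudocount and 0.00617% with DESeq2's kind of size factors (RLE), and 0 keratins were called in each. With any 1 library left out edgeR also called 0 of the 15 keratins. It then called 0.0370% of all genes without control replicate 1, 0.0247% without control replicate 2, 1.01% without knockout replicate 3, and no gene when another library was dropped.

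**Figure D5:**
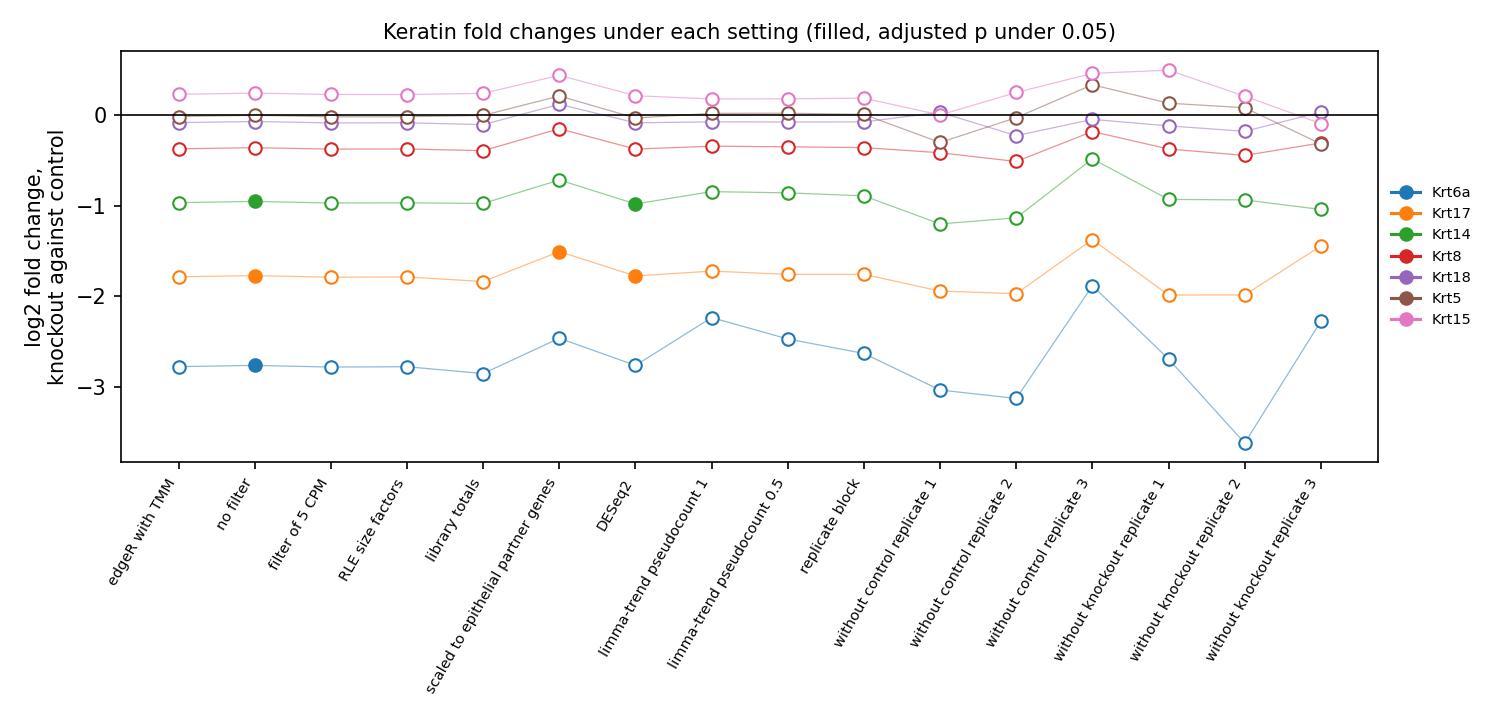
Log2 fold change of 7 keratins under the main fit (labelled edgeR with TMM) and 15 alternatives (filled, adjusted p under 0.05, and open, not). Krt6a, Krt17 and Krt14 stay below 0 throughout, at -3.61 to -1.88, -1.98 to -1.37 and -1.20 to -0.48, while Krt5, Krt15 and Krt18 cross 0.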

How the data were processed

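RNA from the back part of the palate was column-purified and made into TruSeq mRNA libraries, per the labels' protocols. Alignment tools in the submitters' processing notes are STAR 2.4.1d and Partek, with build mm10. No annotation, counting setting or strand use is given in the sources used here. The authors deposited estimated counts per gene, despite a file name that says normalized: column totals differ, and 64.5% of values above 0.5 are whole within 0.001. The table has 1 more column, whose name reads as a further wild type library. No label matches it, so it was left out of the controls.

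Estimated counts were rounded, filtered at a mean of 1 CPM (16218 genes kept) and tested with edgeR 4.0.16 (R 4.3.3; TMM, quasi-likelihood, no block, Benjamini-Hochberg over all genes, threshold 0.05). SEs come from the F statistic, and levels are TMM-scaled CPM. Lengths, positions and shared 50-base stretches come from GENCODE M21 on GRCm38 (mm10), which held all 54 keratin symbols. Alternatives were limma 3.58.1, DESeq2 1.42.0, other filters, scalings and pseudocounts (limma's fold changes are of log2(CPM + 1) or log2(CPM + 0.5)), a replicate block, and each library left out. On simulated counts of these 16218 genes the test recovered 12.0% of genes at a log2 fold of 0.5, 67.2% at 1 and 96.0% at 2, drawn from genes of at least 5 CPM. The simulation held no library that stands apart, as both replicates numbered 3 do here. Its changed genes were picked at random, so these shares do not give the chance of calling a keratin. Keratins of at least 1 CPM are named with their values, those below with at least 10 counts may be named, and the epithelial genes named are up to 4 per direction by p, with Trp63, Cdh1 and Epcam. The members, classes and lists were chosen with earlier results of these data known. The pituitary list lacks 1 gene that is not reported here. Figures used matplotlib 3.10.9.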

Additional observations from a re-analysis of the deposited data

How the results depend on the processing

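Of the 15 tested keratins, edgeR called 0 (0.00617% of all genes), against 1 at a threshold of 0.1 (1.84%). It called 3 without a filter (2.27%) and 1 when scaled to other epithelial genes (0.179%), and DESeq2 called 2 (3.12%). The share of all genes called thus rose in each of these settings too. Of the other epithelial genes 3 were called without a filter and 3 with DESeq2. The cause was not tested. Each library left out gave 0 calls of either kind. The keratin median of -0.37 ranged from -0.49 to -0.15 over all alternatives. Class sums moved by less than 1 SD between replicates, except root sheath keratins (-0.54), which ran from -1.44 (without knockout replicate 2) to -0.19 over libraries left out. Signs turned in 7 of the 15 keratins under some setting. Scaled to epithelial genes, which by construction moved the median of all genes up by 0.20, log2 fold changes became 0.034 for Krt1, 0.12 for Krt18, 0.21 for Krt5 and 0.087 for Krt7. Krt5 was also 0.018 and 0.019 in limma-trend with pseudocounts of 1 and 0.5, and 0.0055 with the replicate block. Without 1 library, Krt5 ran from -0.32 to 0.33, Krt7 from -0.38 to 0.11, Krt18 from -0.23 to 0.031, Krt15 from -0.10 to 0.49, Krt10 from -0.036 to 0.38, Krt1 from -0.61 to 0.13 and Krt4 (-0.49 with all libraries) from -1.08 to 0.037.

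Replicate numbers did not pair the libraries: deviations of same-numbered libraries correlated at -0.01, -0.01 and 0.02. With the replicate block edgeR called 0 keratins and 0 of all genes, and Krt17 was at -1.76 (adjusted p = 0.192). Without the filter 45 keratins entered the fit, and the 3 called were Krt17, Krt14 and Krt6a. Leaving out control replicate 3 and knockout replicate 3 for the count of separated keratins, the order per kilobase and the other epithelial genes was chosen after seeing the data. Depth limits what can be said of the 39 keratins below the filter, 9 of which had no count.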
